A study of Homo sapiens with 16 samples.

Results

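MM.1S, an established human multiple myeloma cell line, was treated with 2 histone methyltransferase inhibitors together or with their solvent, and the levels of transcripts were compared on 1-colour arrays. The 4 arrays are those titled GSK126+UNC0638 and DMSO for this line, with 2 biological replicates a group, out of 16 arrays in the whole series. GSK126 inhibits EZH2 and UNC0638 inhibits G9a, each was given at 1 µM, and all cells were harvested at day 6. The DMSO cells received the solvent alone. The remaining 12 arrays hold MM.1S cells given GSK126 or UNC0638 alone and a second myeloma line, RPMI-8226, given the same 4 treatments. Each line is a single established line, so the replicates carry the spread between its cultures and not between patients. Levels are given as log2 relative signal, the log2 intensity of a probe minus the 75th percentile of its array, and a change is the difference of group means on that log2 scale with its standard error.

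EZH2 is the catalytic subunit of Polycomb repressive complex PRC2 and places H3K27 methylation, a mark of silenced genes. G9a, encoded by EHMT2, places H3K9 methylation, another repressive mark. Myeloma is a malignancy of plasma cells, the antibody-secreting end stage of B cells, and its cells depend on the transcription factor IRF4, which maintains MYC. Type I interferon signals through the JAK kinases to a complex that holds STAT2 and IRF9 and switches on a broad set of interferon-stimulated genes. The comparison asks which pathways and genes were raised and which were lowered by dual inhibition.

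The 75th percentile of the 4 arrays lay between 431 and 455 intensity units, between 49.9% and 52.1% of spots were well above background, and the replicates of a group correlated across probes at 0.995 in DMSO and 0.994 with the combination. All 10 plasma cell markers were detected in both groups, SDC1 (syndecan-1) at 6.26 and 6.15 in the DMSO arrays and XBP1, a driver of the secretory programme, at 7.31 and 7.30. Markers of other cell types were detected in part. On at least 1 of the 4 arrays, 6 of 9 T and NK cell markers were well above background. The same held for 5 of 8 erythroid and 5 of 8 epithelial markers. It also held for 3 of 9 monocyte and macrophage, 3 of 8 granulocyte and 3 of 8 fibroblast and stroma markers. CSF1R, FCN1, VCAN, MNDA, MARCO and CD163 were not well above background on any of the 4 arrays, and neither were NKG7, KLRD1 and ZAP70, MPO and ELANE, or COL1A1, COL1A2 and COL3A1. The summed relative signal of the 9 monocyte and macrophage markers measured was 0.973 to 0.997 in the DMSO arrays and 1.92 to 2.17 with the combination. That of the 9 T and NK cell markers was 9.64 to 9.78 and 6.87 to 7.13, and that of the 10 plasma cell markers 678 to 709.7 and 457 to 460.1. The erythroid sum was 15.1 to 15.9 in DMSO and 22.8 to 23.2 with the combination, the fibroblast and stroma sum 0.138 to 0.178 and 0.407 to 0.516, the granulocyte sum 0.377 to 0.464 and 0.309 to 0.355 and the epithelial sum 1.70 to 1.73 and 1.46 to 1.54. Of 5 erythroid markers tested HBB alone was higher, by 1.9-fold (adjusted p = 0.1037 with 1 fit over all 16 arrays), and 3 were lower. Of 5 T and NK cell markers tested CD3E (at least 4.66-fold) and GNLY (adjusted p = 0.1683 with 1 fit over all 16 arrays) were higher and CD4 and CD8A lower. CD8A no longer passed without DMSO replicate 2 (adjusted p = 0.07242) or combination replicate 1 (0.06354). Of 3 monocyte markers tested ITGAM (12-fold) and CD68 were higher. The part of any other cell type in the results was not tested.

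Dual inhibition moved a large share of the measured transcriptome, with the larger changes being rises and the more frequent ones falls. Of the 24563 probes that exceeded background on the pair of arrays of one group or the other, 13592 passed limma's test at an adjusted p of 0.05, of which 5579 were higher and 8013 lower with GSK126+UNC0638. Beyond 2-fold the balance turned, with 2515 probes higher and 1478 lower, and beyond 4-fold 944 were higher and 103 lower. With 1 probe a gene, 14138 genes were tested. The background share was 24.2% of genes higher (3421 genes) and 34.9% lower (4934 genes), and 10.7% were both called and over 2-fold higher while 5.62% were called and over 2-fold lower. Among the 13130 genes measured in both groups, 22% were higher and 36.6% lower. The median change over all genes was -0.12 on the log2 scale. Scaling to the 75th percentile of the probes detected on all 8 MM.1S arrays (the detected-probe scaling) moved the median change of the probes from -0.12 to 0.05 and the share of calls that were higher from 41% to 55.9%, so directions of small changes are relative to the scaling. Of the 24563 probes, 1012 were above background on both combination arrays and on no DMSO array, and 347 the reverse. A gene counted only through the group where it was bright had to differ. For several lists below, counts are therefore also given for the members measured in both groups. The counts of other lists can include genes kept through the bright group alone. In bulk RNA, fewer cells of a type and less RNA per cell cannot be told apart.

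The 10 largest rises among genes measured in both groups lay between 4.55 and 5.94 on the log2 scale. ZG16B, which encodes a secreted lectin-like protein (probe at chr16:2882113-2882172 in GRCh37), gave -3.65 and -3.74 in the DMSO arrays and 2.10 and 2.39 in the combination arrays, a change of 5.94 ± 0.30 (adjusted p = 0.00011). IL1RN, the interleukin-1 receptor antagonist (probe at chr2:113891531-113891590), went from -4.38 and -4.25 to 1.41 and 1.84, a change of 5.94 ± 0.23, while a second IL1RN probe gave 0.54 ± 0.22 and did not pass the test (adjusted p = 0.0761). FCRL5, an Fc receptor-like protein of B and plasma cells, went from -3.55 and -3.68 to 1.84 and 2.36, a rise of 52.5-fold. In each of these 3 genes both treated arrays lay more than 4 log2 units above both controls. FCGR2B, the inhibitory Fc gamma receptor, which has a near-identical copy in FCGR2C, showed -4.36 and -4.25 in DMSO and 0.89 and 0.90 with the combination (5.19 ± 0.11, adjusted p = 2.71e-05). The cell adhesion molecule CEACAM1 changed by 5.13 ± 0.16 and HSD11B1, which regenerates active cortisol, by 4.96 ± 0.25. A second CEACAM1 probe was also higher but by less, at 2.38. The 5 FCRL5 probes, all called higher, had fitted changes from 3.09 to 6.70, the largest from a probe at background in DMSO. The cannabinoid receptor CNR1 changed by 4.63 ± 0.33, the laminin chain LAMB3 by 4.56 ± 0.25, the ubiquitin ligase CBLB by 4.55 ± 0.33 and IFIT1 by 4.55 ± 0.33. Adjusted p-values of these 10 genes lay between 2.71e-05 and 0.000257.

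Among the 10 largest falls were 6 genes of amino acid and glutathione metabolism or transport. SLC6A9, the glycine transporter, fell from 3.07 and 3.61 to -0.53 and -1.44, a change of -4.32 ± 0.43 (adjusted p = 0.000582). CHAC1, which degrades glutathione, went from 2.56 and 3.08 to -0.64 and -1.53 (-3.91 ± 0.37). For both genes the 2 combination arrays differed by less than their distance to the controls. PSAT1, PHGDH and CBS, enzymes that make serine and cystathionine, changed by -3.31 ± 0.25, -3.17 ± 0.30 and -3.13 ± 0.51. CBS had the widest spread of the group, at -1.06 and -2.25 in the combination arrays against 1.31 and 1.64 in DMSO. SLC7A5, the leucine transporter, fell from 3.24 and 3.54 to 0.70 and 0.37 (-2.86 ± 0.17). The others were ACTL8, an actin-like cancer-testis gene (-3.51 ± 0.25), the adhesion receptor ADGRE2, listed as EMR2 on the array (-3.37 ± 0.11), the telomerase catalytic subunit TERT (-3.35 ± 0.16) and the peptide hormone ADM2 (-2.65 ± 0.33). A second ADM2 probe, brighter on average in MM.1S and used for the gene in gene counts, gave 0.02 ± 0.10. It did not pass the test. TERT was 0.21 and -0.02 in DMSO and -3.26 and -3.24 with the combination, with the 2 treated arrays almost equal.

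**Figure D1:**
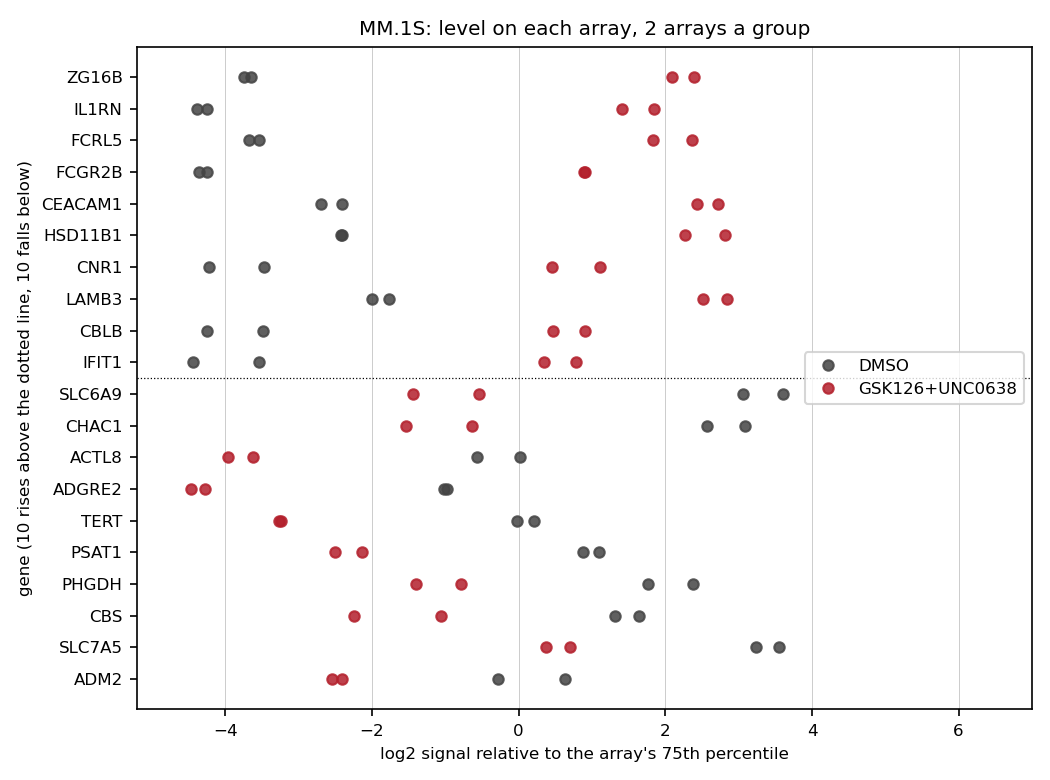
Log2 relative signal on each of the 4 arrays for the 10 genes with the largest rise and the 10 with the largest fall among those measured in both groups; each point is 1 array. The points of the 2 groups do not overlap for any gene, from ZG16B (DMSO -3.65 and -3.74) to ADM2 (combination -2.41 and -2.55), and the choice of genes required this.

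Several genes were not well above background in DMSO and were bright with the combination, so that only a lower bound of the rise can be given. A second FCRL5 probe rose at least 56.2-fold, the neuronal protein BRINP2 (FAM5B on the array) at least 55-fold, and CXCL13, the B cell attracting chemokine, at least 34.4-fold. CXCL13 lay at -6.43 and -6.80 in the DMSO arrays and 0.17 and 0.47 in the combination arrays. UBD, an interferon-inducible ubiquitin-like protein, rose at least 32.6-fold, the acetylcholine receptor subunit CHRNA1 at least 32.2-fold, and BCL6, the germinal centre repressor, at least 32.1-fold. CX3CR1, the fractalkine receptor, and FCRL2 each rose at least 31.5-fold. Their adjusted p-values from limma lay between 7.49e-05 and 0.000445, but these probes were kept through the bright group alone and had to differ, so the p-values are no support. The bounds of the falls were smaller. A second CHAC1 probe fell at least 10.9-fold, the pseudogene CEP192P1 (LOC643201 on the array) at least 7.59-fold, 1 probe of CDC23, a subunit of the anaphase-promoting complex, at least 5.03-fold (a brighter probe of it changed by -0.41 ± 0.08), the cationic amino acid transporter SLC7A2 at least 5.01-fold and a second SLC6A9 probe at least 4.92-fold. These probes too were kept through the bright group alone, here DMSO, so their p-values from limma are no support. That SLC6A9 probe had the highest adjusted p of them, 0.0135. Its fitted change of -2.96, which is not a measured size, was -2.78 without DMSO replicate 2 and -2.55 without combination replicate 2.

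Interferon-stimulated genes rose as a group. Of 73 listed genes 70 were tested and 46 were higher and 5 lower, 34 of them over 2-fold higher and none over 2-fold lower, and the median change was 0.91 beside -0.12 for all genes. Of the 60 members measured in both groups, 36 were higher and 5 lower, with a median of 0.54. The list holds genes that the study measured in these cells and was written with earlier results known, so its count is not independent evidence of the direction. IFIT1, which binds viral RNA, gave -4.44 and -3.54 in DMSO and 0.34 and 0.78 with the combination. ISG15, a ubiquitin-like modifier, went from 0.62 and 0.59 to 2.26 and 2.69 (1.88 ± 0.16). IFI6, a mitochondrial antiapoptotic protein, went from -1.40 and -1.10 to 0.11 and 0.69 (1.65 ± 0.22). In these 3 genes the treated arrays lay above both control arrays without overlap. OAS3, which makes the activator of RNase L, was dimmer, at -3.97 and -3.43 and -2.22 and -2.76, and its change of 1.21 ± 0.25 had an adjusted p of 0.00836, which was 0.077 with 1 fit over all 16 arrays. The largest members were at background in DMSO. IFI44L rose at least 21.3-fold, RSAD2 (viperin) at least 22-fold, UBD at least 32.6-fold and TRIM22 at least 15.9-fold, while XAF1 was above background on 1 of the 2 DMSO arrays and changed by 6.12 ± 0.54. APOL6 (-0.69 ± 0.15, 1 of its 3 probes called) and HERC5 (-0.59 ± 0.12) were lower. The 3 remaining members counted as lower, by their brightest probe, were BST2 (-0.38 ± 0.09), SP100 (-0.31 ± 0.09) and PML (-0.29 ± 0.08), but both other SP100 probes were higher (0.54 ± 0.10 and 1.07 ± 0.17) and so was another PML probe (0.99 ± 0.14). Without DMSO replicate 1 these 3 calls were lost (adjusted p = 0.0629 for BST2, 0.148 for SP100 and 0.0995 for PML), which left 2 lower members, as did quantile normalization and the detected-probe scaling. BST2 also lost its call without combination replicate 2 (0.0528), SP100 without either GSK126 array (0.05206) or combination replicate 1 (0.1212) and PML without DMSO replicate 2 (0.05709) or combination replicate 2 (0.09241).

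The promoters of 3 of these genes are shown because the list moved together and its known control element can be read in them. The sequences are the 250 bases before the RefSeq start of each gene in GRCh38.p14, 5′ to 3′ on the strand of the gene, in lower case, and capitals mark matches on either strand to GAAANNGAAA, the core of the interferon-stimulated response element. Overlapping matches appear as 1 run. IFIT1 is at chr10:89392373-89392622, + strand, ISG15 at chr1:1013247-1013496, + strand and IFI44L at chr1:78620198-78620447, + strand.
IFIT1: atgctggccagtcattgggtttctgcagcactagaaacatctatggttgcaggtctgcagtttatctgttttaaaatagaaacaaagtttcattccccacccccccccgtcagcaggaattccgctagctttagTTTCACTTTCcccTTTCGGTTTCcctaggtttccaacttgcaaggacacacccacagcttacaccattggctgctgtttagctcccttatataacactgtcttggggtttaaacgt
ISG15: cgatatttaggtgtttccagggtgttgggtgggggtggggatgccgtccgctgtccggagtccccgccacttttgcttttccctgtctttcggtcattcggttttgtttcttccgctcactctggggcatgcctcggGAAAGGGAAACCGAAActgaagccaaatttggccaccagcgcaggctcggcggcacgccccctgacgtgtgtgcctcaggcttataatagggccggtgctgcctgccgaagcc
IFI44L: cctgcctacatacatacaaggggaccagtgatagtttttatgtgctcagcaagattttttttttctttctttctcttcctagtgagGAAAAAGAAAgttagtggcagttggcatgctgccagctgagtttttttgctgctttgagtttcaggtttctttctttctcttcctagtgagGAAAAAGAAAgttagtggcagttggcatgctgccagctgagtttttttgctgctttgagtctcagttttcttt
Each held 2 matches, the first starting 116, 113 and 164 bases before the gene start. A promoter entry was found for 53 of the 70 tested members, and 27 of these (50.9%) held the core. Of the 37 members that were higher and had an entry, 21 (56.8%) held it, beside 3.07% of all 27305 promoters of that length and 2.53% of the 11055 promoters of tested genes. A match is a run of letters and was not tested as a binding site.

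Genes that carry the interferon signal included both rises and falls. Among 40 receptors, sensors and transducers 37 were tested, with a median of 0.25. Of these 15 (40.5%) were higher and 3 (8.11%) lower, beside 24.2% and 34.9% of all genes. Of the 35 measured in both groups 13 were higher and 3 lower, beside shares of 22% and 36.6% of all genes so measured. IRF9 went from -0.81 and -0.86 to 0.64 and 0.64 (1.48 ± 0.09, adjusted p = 0.000181). STAT2 changed by 0.88 ± 0.10 and the kinase JAK2 by 1.14 ± 0.15. The RNA sensor DHX58 (LGP2) changed by 2.01 ± 0.09, and TLR7 rose at least 7.38-fold. IFNAR2, a chain of the type I receptor, fell by 1.9-fold (-0.92 ± 0.11). The DNA sensor CGAS (-0.87 ± 0.10) and the phosphatase PTPN6 (-0.46 ± 0.12), which dampens cytokine signals, were the other lower members, with 5 lower under normexp background correction, and PTPN6 no longer passed without DMSO replicate 1, DMSO replicate 2 or combination replicate 2 (adjusted p = 0.07635, 0.05101 and 0.0651). Of 21 interferon ligands 2 were tested, IFNA4 (-0.26 ± 0.13, adjusted p = 0.14, or 0.01507 with quantile normalization) and IFNL2 (-0.09 ± 0.27, adjusted p = 0.802). IFNA1, IFNA2, IFNB1 and the others on the list were not well above background on both arrays of either group, and no change could be measured for them.

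Antigen presentation split by class. MHC class II genes were nearly all higher, 16 of 19 tested with 2 lower and a median of 1.70, and 13 were over 2-fold higher. Of the 17 measured in both groups 14 were higher. HLA-DRB1 went from 1.69 and 1.35 to 4.09 and 3.80, a 5.38-fold rise, and HLA-DMB, which loads peptides, from 1.02 and 1.07 to 3.15 and 3.24 (2.15 ± 0.10). HLA-DRA changed by 1.11 ± 0.14, HLA-DPB1 by 1.81 ± 0.14 and HLA-DQB1 by 2.33 ± 0.14, and HLA-DQA1 rose at least 2.61-fold. Probes for HLA-DRB1, HLA-DRB4 and HLA-DRB5 target near-identical genes, so the single locus is uncertain. CIITA, the master regulator of the class, was 0.60 and 0.40 in DMSO and 0.40 and -0.06 with the combination and did not pass the test (adjusted p = 0.181, or 0.04156 with the replicate number as a block). The 2 lower members were HLA-DOA (-0.54 ± 0.09), which restrains peptide loading, and the lysosomal reductase IFI30 (-0.26 ± 0.09). The call of IFI30 was lost when any 1 of the 8 MM.1S arrays was left out (adjusted p from 0.0617 to 0.1604). With 1 fit over all 16 arrays HLA-DRA, HLA-DMB, HLA-DPB1 and HLA-DOA did not pass. Class I genes and the peptide loading machinery were mixed, 8 (33.3%) higher and 6 (25%) lower of 24, beside 24.2% and 34.9% of all genes. None changed over 2-fold, and the median was 0.11. HLA-F changed by 0.91 ± 0.09, the shared light chain B2M by 0.72 ± 0.09 and the peptide transporter TAP1 by 0.71 ± 0.09. The classical genes HLA-B (0.13 ± 0.19, adjusted p = 0.603) and HLA-C (-0.15 ± 0.08, adjusted p = 0.147) did not pass by their brightest probes. Another HLA-B probe was higher (1.67 ± 0.14), and with quantile normalization HLA-B (0.578, adjusted p = 0.04071) and HLA-C (0.311, adjusted p = 0.01967) both passed as higher. The lower members included MICB (-0.84 ± 0.07), the chaperone CALR (-0.77 ± 0.09) and the proteasome activators PSME1 (-0.66 ± 0.13) and PSME2 (-0.77 ± 0.09). With quantile normalization 13 class I members were higher.

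B cell surface genes rose and plasma cell markers fell, most of the markers by less than 2-fold. Of 45 B cell surface and signalling genes 36 were tested, 25 higher and 2 lower, with a median of 1.09, and of the 27 measured in both groups 16 were higher and 2 lower (median 0.54). Fc receptor-like genes led the list. FCRL2 rose at least 31.5-fold, FCRL4 at least 10.7-fold and FCRL3 at least 6.23-fold, besides FCRL5 and FCGR2B above. MS4A1, which encodes CD20, lay at -6.74 and -6.73 in DMSO and -3.60 and -3.06 with the combination and rose at least 2.74-fold. The lower members were the light chain-like genes IGLL1 (-0.96 ± 0.14, with a second probe higher, 0.91 ± 0.27) and IGLL5 (-0.34 ± 0.08), and IGLL5 no longer passed without DMSO replicate 1 (-0.32, adjusted p = 0.06001). Among the 10 plasma cell markers all were lower, with a median of -0.65. With the detected-probe scaling 8 were still called, and with quantile normalization 4. XBP1 (-0.40) and SDC1 (-0.56) were among the less firm members, at 0.0561 and -0.0916 with quantile normalization. Without combination replicate 1 XBP1 was -0.35, and without combination replicate 2 SDC1 was -0.43. TNFRSF17, which encodes BCMA, changed by -0.56 ± 0.11, CD38 by -0.77 ± 0.14 and SLAMF7 by -0.84 ± 0.09, and none of these 3 passed with 1 fit over all 16 arrays. IRF4 alone was over 2-fold lower.

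IRF4 and MYC fell. IRF4 was 4.21 and 4.14 in DMSO and 3.05 and 2.93 with the combination (-1.19 ± 0.12, adjusted p = 0.000639), and MYC 5.80 and 5.59 and 4.05 and 3.92 (-1.71 ± 0.12, a 3.27-fold fall). KLF2, a transcription factor of quiescence, went from 4.07 and 3.87 to 2.17 and 2.09 (-1.83 ± 0.12). PRDM1, which encodes the plasma cell factor BLIMP1, went from 4.84 and 4.70 to 4.04 and 4.09 (-0.71 ± 0.11). For all 4 genes both treated arrays lay below both controls by more than the spread within either group. In the wider list of plasma cell identity and the axis, 41 of 44 genes were tested, 11 (26.8%) were higher and 16 (39%) lower, near the 24.2% and 34.9% of all genes, and the median of -0.19 became 0.13 with quantile normalization, which left 10 lower. Without DMSO replicate 1 the higher members numbered 7. The surface receptor GPRC5D changed by -1.93 ± 0.15, the receptor TNFRSF13B (TACI) by -1.26 ± 0.13 and the B cell transcription factor SPIB by 1.05 ± 0.17, and the rise of BCL6 given above is the largest of the list.

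**Figure D2:**
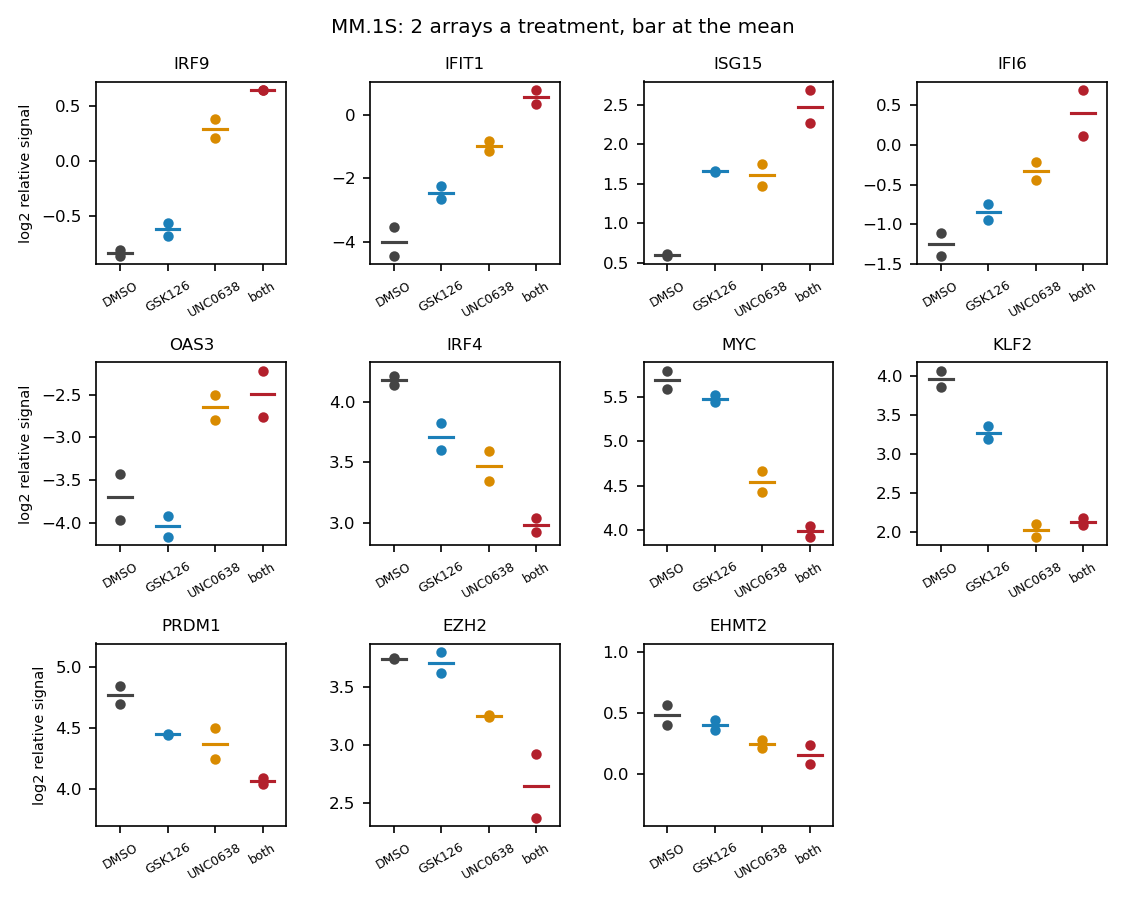
Log2 relative signal of 11 genes in the 4 MM.1S treatments, 2 arrays each as points with the mean as a bar; each panel has its own vertical range. IRF9, IFIT1, ISG15 and IFI6 lie higher with both inhibitors than with DMSO and IRF4, MYC, KLF2 and PRDM1 lower, and the single agents lie between DMSO and both for IFIT1 (GSK126 1.53 and UNC0638 3.01 over DMSO) but not for OAS3 (GSK126 -0.34) or KLF2 (UNC0638 -1.95, both -1.83).

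Cell cycle genes fell broadly but mostly by less than 2-fold. Of 76 genes of DNA replication and the G1/S step all were tested, 71 were lower, 2 higher and 3 not called, 27 were over 2-fold lower, and the median was -0.88. ORC1, a subunit of the origin recognition complex, went from 0.47 and 0.51 to -1.04 and -1.48 (-1.75 ± 0.15), the transcription factor E2F2 from 5.75 and 5.86 to 4.38 and 4.04 (-1.60 ± 0.13), and the phosphatase CDC25A from 2.06 and 1.89 to 0.62 and 0.24 (-1.55 ± 0.17). PCNA, the replication clamp, changed by -0.86 ± 0.14. The higher members were E2F7, a repressor of the E2F programme (0.74 ± 0.10), and RB1, the retinoblastoma protein (0.48 ± 0.09). Of 64 genes of G2 and mitosis 58 were lower and none higher (1 with quantile normalization), 5 of them over 2-fold, with a median of -0.63. The mitotic kinesin KIF11 changed by -1.42 ± 0.19, cyclin B1 (CCNB1) by -1.05 ± 0.09 and the proliferation marker MKI67 by -0.57 ± 0.12. The PCNA promoter, at chr20:5126623-5126872, - strand in GRCh38.p14, is printed as an example of the list, with capitals marking its single match to TTCCCGC, the core of E2F sites, on either strand, 59 bases before the start.
PCNA: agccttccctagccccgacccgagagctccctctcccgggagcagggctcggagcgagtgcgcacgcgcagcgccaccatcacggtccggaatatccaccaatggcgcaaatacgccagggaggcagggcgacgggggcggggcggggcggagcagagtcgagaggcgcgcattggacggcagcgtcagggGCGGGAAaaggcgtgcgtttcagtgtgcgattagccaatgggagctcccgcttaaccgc
That core was found in 16 of 60 (26.7%) lower members with an entry, 5.59% of all promoters and 8.61% of those of tested genes. Among all tested members with an entry it was in 17 of 65 (26.2%).

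CDK inhibitors and p53 targets had 17 of 31 tested higher and 2 lower, a median of 0.52, and 10 over 2-fold higher. The 2 lower became 1 with the detected-probe scaling and without DMSO replicate 2 or either combination array. ZMAT3, a p53-induced RNA binding protein, went from -4.18 and -4.43 to -0.88 and -0.70, an 11.4-fold rise. The kinase PLK2 changed by 3.36 ± 0.14, PHLDA3, which restrains AKT, by 2.49 ± 0.20, and CDKN1C (p57) by 1.79 ± 0.15. CDKN1A (p21) was -2.93 and -2.44 in DMSO and -2.33 and -2.65 with the combination and did not pass (adjusted p = 0.463). Among cell death regulators 19 (47.5%) of 40 tested were higher and 10 (25%) lower, beside 24.2% and 34.9% of all genes. The BH3-only genes moved in both directions, with BMF (a 3.99-fold rise) and BBC3 (PUMA, 1.47 ± 0.13) higher and PMAIP1 (NOXA, -1.20 ± 0.25) lower. The protective gene BCL2L1 (BCL-XL) changed by -0.59 ± 0.13 and APAF1, of the apoptosome, by 1.45 ± 0.12. TNFRSF10D, a decoy receptor for TRAIL, changed by 2.40 ± 0.17 and GSDME, a pore-forming protein, by 2.47 ± 0.43, with 1 of its DMSO arrays above background. The count of lower members was 6 with quantile normalization and 6 without DMSO replicate 1.

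Genes that supply protein synthesis were mostly lower. Of 90 ribosome biogenesis genes 87 were lower and none higher, 42 over 2-fold, with a median of -0.97. RRP12 went from 1.47 and 1.45 to -0.13 and -0.54 (-1.79 ± 0.18), MYBBP1A from 2.50 and 2.47 to 0.75 and 0.68 (-1.77 ± 0.07) and BOP1 from 2.94 and 2.91 to 1.46 and 0.94 (-1.73 ± 0.16), and the abundant nucleolar proteins NCL, FBL and NPM1 changed by -1.06 ± 0.09, -1.17 ± 0.09 and -0.62 ± 0.12, of which NPM1 did not pass with quantile normalization. The E-box CACGTG, to which MYC binds, was in the promoters of 11 of 73 (15.1%) lower members with an entry, beside 6.49% of all promoters and 8.82% of those of tested genes. Among all tested members with an entry it was in 11 of 76 (14.5%). Among 20 cytosolic aminoacyl-tRNA synthetases 19 were lower (median -1.06), GARS1 by -1.97 ± 0.17, YARS1 by -1.80 ± 0.14 and AARS1 by -1.64 ± 0.14. Of 17 mitochondrial synthetases 13 were lower (median -0.43), SARS2 by -1.14 ± 0.09, and MARS2 fell at least 2.17-fold.

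The ATF4 response, which raises amino acid synthesis and uptake under stress, was lower for 26 of 37 tested members and higher for 2, with 19 over 2-fold lower and a median of -1.05. ATF4 itself was 7.44 and 7.64 in DMSO and 6.60 and 6.58 with the combination (-0.95 ± 0.09). Asparagine synthetase, ASNS, went from 5.52 and 5.80 to 4.38 and 4.30 (-1.32 ± 0.12) and the kinase-like inhibitor TRIB3 from 4.70 and 5.11 to 3.70 and 3.59 (-1.26 ± 0.16). PYCR1, which makes proline, changed by -2.50 ± 0.15, and ASS1, which makes argininosuccinate, by -3.31 ± 0.63, with 1 of its combination arrays above background. The members that were higher were KLHL24 (1.66 ± 0.21) and the lipoprotein receptor VLDLR (1.54 ± 0.08). Of 20 amino acid transporters tested 11 were lower and 4 higher, with a median of -0.72, and 2 were higher without DMSO replicate 1 or combination replicate 2. The glutamine transporter SLC1A5 changed by -2.46 ± 0.22, the cystine transporter SLC7A11 by -2.45 ± 0.24 and the arginine transporter SLC7A1 by -1.97 ± 0.18, and SLC7A7 (0.78 ± 0.13) was among the higher ones. The promoters of CHAC1 (chr15:40953221-40953470, + strand) and ASNS (chr7:97872409-97872658, - strand) are given in GRCh38.p14 with capitals marking the match to TGATGNAA, the core of the composite site at which ATF4 binds, on either strand.
CHAC1: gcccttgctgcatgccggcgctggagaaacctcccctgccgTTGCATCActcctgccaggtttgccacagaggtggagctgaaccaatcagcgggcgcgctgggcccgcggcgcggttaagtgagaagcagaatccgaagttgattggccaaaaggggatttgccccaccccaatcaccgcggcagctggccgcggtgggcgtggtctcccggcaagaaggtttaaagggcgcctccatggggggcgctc
ASNS: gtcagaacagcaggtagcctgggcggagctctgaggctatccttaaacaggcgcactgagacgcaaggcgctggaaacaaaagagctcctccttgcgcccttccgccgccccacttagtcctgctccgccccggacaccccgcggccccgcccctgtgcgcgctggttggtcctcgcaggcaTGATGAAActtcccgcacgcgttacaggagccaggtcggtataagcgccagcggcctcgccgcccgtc
The match starts 209 bases before the start in CHAC1 and 68 bases before it in ASNS. It was found in 5 of 19 (26.3%) lower members with an entry (CHAC1, MTHFD1L, ASNS, ATF3 and GOT1), beside 3.19% of all promoters and 1.47% of those of tested genes. Among all tested members with an entry it was in 5 of 29 (17.2%). The list was written as one of the ATF4 response, so an excess over other promoters is no evidence about its lowered members.

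Lipid synthesis and energy metabolism were lower. Of 37 tested genes of cholesterol synthesis and its SREBP regulators 27 were lower and 1 higher (median -0.78), and none was higher without DMSO replicate 2, combination replicate 2 or any 1 of the single-agent arrays. Squalene epoxidase, SQLE, went from 1.11 and 0.70 to -1.37 and -1.79, a 5.61-fold fall, fatty acid synthase, FASN, from 4.23 and 4.34 to 2.20 and 2.29 (-2.04 ± 0.20), and INSIG1, the sterol sensor, from 5.61 and 5.74 to 3.71 and 4.02 (-1.81 ± 0.28). ACACA, acetyl-CoA carboxylase, changed by -1.35 ± 0.19 and the synthase HMGCS1 by -1.37 ± 0.14. In glycolysis 18 of 23 were lower and HK1 alone was higher (0.50 ± 0.09), with a median of -0.85 and 2 or 3 higher with quantile normalization, the detected-probe scaling or without DMSO replicate 2. Lactate dehydrogenase LDHA changed by -1.48 ± 0.15, the monocarboxylate transporter SLC16A1 by -1.35 ± 0.11, hexokinase HK2 by -1.26 ± 0.16 and aldolase ALDOA by -1.19 ± 0.10. Oxidative phosphorylation had 40 of 51 lower and none higher (median -0.44), with ATP5MC1 at -1.15 ± 0.09, but 9 were lower and 4 higher with quantile normalization. Proteasome genes had 32 of 33 lower (median -0.66), PSMC6 at -1.14 ± 0.11, and 20 were lower with quantile normalization. The secretory pathway and unfolded protein response was mixed, 20 (39.2%) lower and 4 (7.84%) higher of 51. The share lower was near the 34.9% of all genes, while 24.2% of all genes were higher. With quantile normalization 8 of the list were lower and 9 higher, its median moving from -0.27 to 0.0141. It had 10 lower members without DMSO replicate 2 and 13 without combination replicate 1, 1 higher without DMSO replicate 1 and 2 higher without either combination or either UNC0638 array. SEL1L, of the degradation machinery, changed by -1.08 ± 0.11 and the chaperone DNAJB9 by 0.94 ± 0.11, and HSPA5 (BiP) gave -0.21 ± 0.16 and did not pass (adjusted p = 0.313).

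The transcript of EZH2, a target of the treatment, went from 3.75 and 3.74 to 2.92 and 2.37 (-1.10 ± 0.18, adjusted p = 0.00312), and its partners SUZ12 (-0.51 ± 0.08), EED (-0.39 ± 0.07) and PHF19 (-0.73 ± 0.08, with a second probe at 0.26 ± 0.11 that did not pass) were lower. Of 14 PRC2 subunits and H3K27 demethylases 8 (57.1%) were lower and none higher, beside 34.9% and 24.2% of all genes. The largest fitted change in the list was 1.21, which was not called. The counts were 7 lower and 4 higher with the detected-probe scaling, 8 and 3 with normexp, and 1 was higher without DMSO replicate 2 or any 1 of the single-agent arrays. With quantile normalization 4 were lower and 1 higher, under which SUZ12 and EED did not pass. EHMT2 was 0.56 and 0.41 in DMSO and 0.24 and 0.08 with the combination (-0.32 ± 0.10, adjusted p = 0.0329), and its adjusted p rose above 0.05 under 8 of 19 other settings. Without DMSO replicate 1 it was 0.1537, without combination replicate 2 0.1407 and without either UNC0638 array 0.05293. EHMT1, the partner of G9a, gave -0.13 ± 0.07 and did not pass (adjusted p = 0.159). The inhibitors act on the enzymes, and the levels do not measure that inhibition. Among 27 genes of H3K9 methylation 7 (25.9%) were lower and 4 (14.8%) higher, both shares below those of all genes, and the detected-probe scaling turned this to 5 lower and 9 higher and the median from -0.13 to 0.04. SUV39H1 (-1.15 ± 0.08) and TRIM28 (-0.97 ± 0.11) were lower and KDM4C higher (0.79 ± 0.09) by 1 of its 4 probes. The DNA methylation enzymes split, with TET2 (1.40 ± 0.12), DNMT3A (1.28 ± 0.14) and TET1 (1.16 ± 0.19, 1 of 3 probes, not called with 1 fit over all 16 arrays) higher and UHRF1 (-1.35 ± 0.12), DNMT3B (-1.02 ± 0.08) and DNMT1 (-0.63 ± 0.08) lower.

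Secreted signals and signalling genes had large single changes. Of 34 tested chemokines, cytokines and receptors 17 were higher and 5 lower (median 0.48), and of the 28 measured in both groups 12 were higher and 5 lower. CCL2, a monocyte chemokine, went from -2.37 and -2.07 to 1.78 and 2.31, a 19.2-fold rise, and its receptor CCR2 from -0.46 and -0.29 to 2.90 and 2.78 (3.22 ± 0.11). IL6, a growth factor of myeloma, rose at least 5.18-fold and IL7R at least 5.63-fold. The T cell chemokine receptor CXCR3 fell from 4.07 and 4.12 to 2.54 and 2.62 (-1.51 ± 0.12), and CCR10 changed by -1.25 ± 0.19. The interferon-induced chemokine CXCL10 changed by 1.03 ± 0.20 and CXCL9 rose at least 4.85-fold. In the NF-kappaB pathway 11 (40.7%) of 27 were higher and 5 (18.5%) lower, beside 24.2% and 34.9% of all genes. TRAF1 (2.37 ± 0.14) and REL (1.71 ± 0.18) were among the rises. TNFAIP2 was higher by at least 1.61-fold, and the kinase CHUK (-0.65 ± 0.08) was among the falls. With the detected-probe scaling 16 were higher and 1 lower, and with quantile normalization 15 and 3. The lower members numbered 2 without DMSO replicate 1, 3 without DMSO replicate 2 or either UNC0638 array, and 1 without combination replicate 2. Of the 12 S100 proteins and globins measured in both groups 5 were higher and none lower. Of all 16 tested 8 were higher and none lower, S100A10 by 2.60 ± 0.25 and HBD by 1.49 ± 0.08, and S100A6 rose at least 13.7-fold. The count was 5 without combination replicate 2, with 1 lower there and without either GSK126 array, and 3 were lower with quantile normalization.

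Developmental and germline genes, many of them silent in blood cells, moved unevenly. Only 50 of 136 developmental transcription factors were tested, 17 (34%) higher and 17 (34%) lower, beside 24.2% and 34.9% of all genes. Of the 38 measured in both groups 12 were higher and 14 lower, beside 22% and 36.6% of all genes so measured. The falls were thus near the background share. HOXB6 went from -3.69 and -3.95 to -0.11 and -0.42, an 11.7-fold rise, HOXB5 rose at least 2.12-fold, SOX4 changed by 2.42 ± 0.39, and DLX1 fell at least 1.9-fold. Cancer-testis and germline genes had 18 of 73 tested, 4 higher and 10 lower, and 6 lower without DMSO replicate 1 or combination replicate 2. Of the 13 cancer-testis and germline genes measured in both groups 2 were higher and 9 lower. PIWIL4, of the piRNA pathway, rose at least 2.3-fold and MAGEC3 changed by 1.90 ± 0.11, whereas TEX19 (-3.39 ± 0.34, with 1 combination array above background), the synaptonemal protein SYCP3 (-1.54 ± 0.15) and CTAG1A (NY-ESO-1, -1.20 ± 0.08) were lower. Among the 16 Krueppel-like factors tested 5 were higher and 3 lower, with 3 higher without either DMSO array or without combination replicate 2. The shares of that list were 31.2% higher and 18.8% lower. KLF4 rose from -3.71 and -4.04 to -0.74 and -1.03 (2.99 ± 0.19), opposite to KLF2. Of 27 tested adhesion genes 9 (33.3%) were higher and 6 (22.2%) lower, JAM2 at 4.16 ± 0.24 and the integrin ITGAM at 3.58 ± 0.14. The epithelial adhesion molecule EPCAM fell at least 4.37-fold. In the telomerase and shelterin list 10 of 15 were lower and 1 higher (2 with quantile normalization or the detected-probe scaling), and the RNA component TERC changed by -0.64 ± 0.13 while TERT fell by 10.2-fold.

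**Figure D3:**
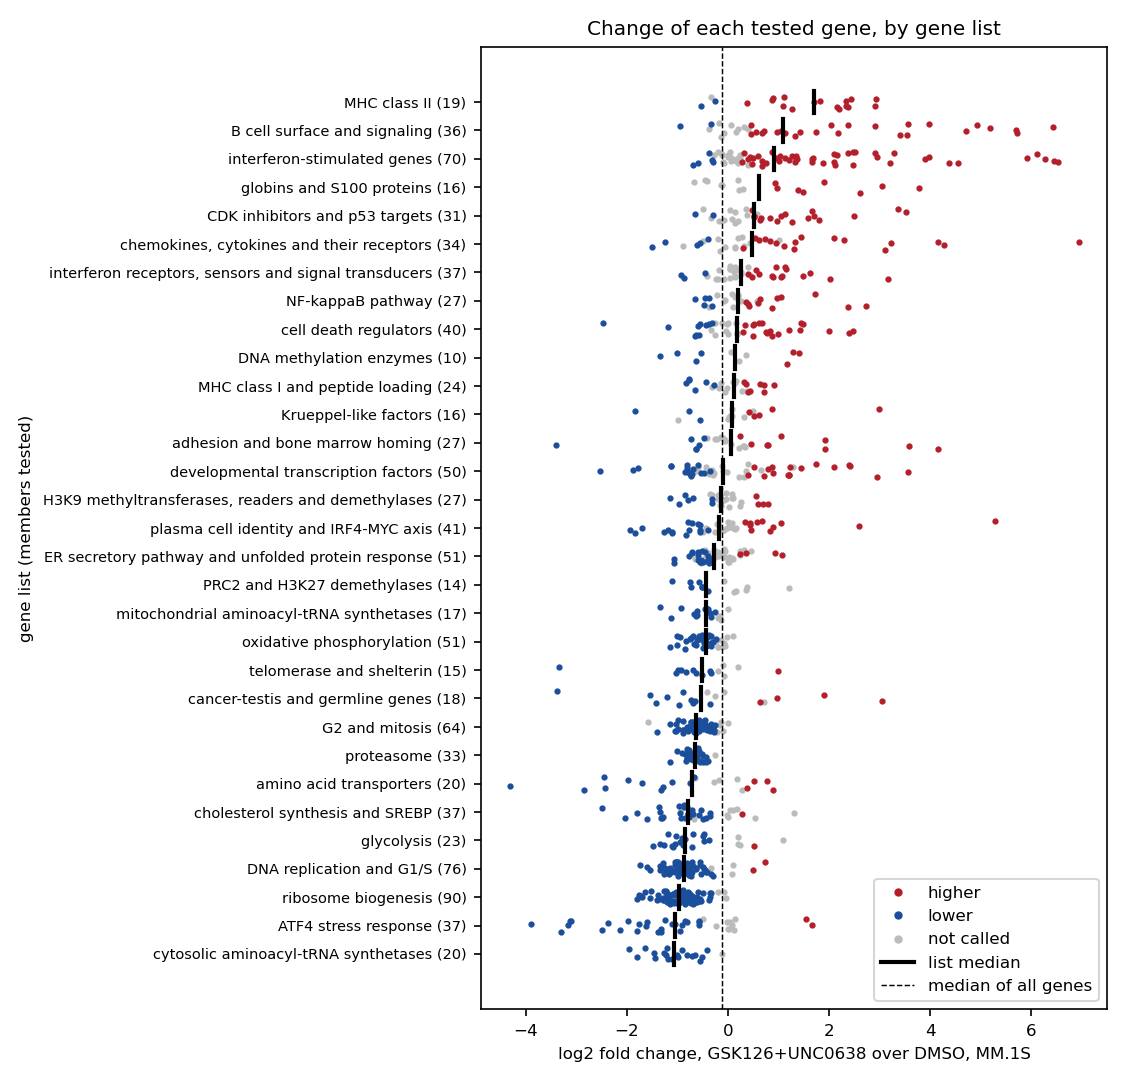
Log2 fold change of each tested gene, GSK126+UNC0638 over DMSO in MM.1S, as points in 31 gene lists ordered by their median (black bar), with the number tested in brackets and the median of all genes (-0.12) dashed. MHC class II (1.70), B cell surface (1.09) and interferon-stimulated genes (0.91) lie furthest right and cytosolic aminoacyl-tRNA synthetases (-1.06), the ATF4 response (-1.05) and ribosome biogenesis (-0.97) furthest left.

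Values for the single agents stand beside those of the combination, and all 3 comparisons share the same DMSO arrays. GSK126 changed 1349 genes and UNC0638 4662, against 8355 with both. For interferon-stimulated genes the list medians were 0.24 with GSK126, 0.62 with UNC0638 and 0.91 with both, and for MHC class II 0.14, 1.51 and 1.70. The median of G1/S genes was -0.15, -0.40 and -0.88, that of ribosome biogenesis -0.22, -0.50 and -0.97, and that of the ATF4 response -0.70, -0.96 and -1.05. For IFIT1 the values were 1.53, 3.01 and 4.55, for MYC -0.21, -1.15 and -1.71, and for EZH2 -0.03, -0.49 and -1.10. Some members had a smaller value with one agent, and the difference between the agents was not tested. HOXB6 gave 3.93 with GSK126 and 0.54 with UNC0638, S100A10 1.93 and 0.59 and CDKN1C 1.49 and -0.04. With UNC0638 further from 0, IL1RN gave 0.41 with GSK126 and 4.28 with UNC0638, HBD 0.40 and 1.45 and TERT -0.13 and -2.58. The difference between the combination and the sum of the single-agent changes passed limma's test for 0% of genes and for 0 probes, with 2418 probes at an unadjusted p under 0.05. It was 1.86 for CHAC1, whose combined fall was smaller than the sum, 0.80 for KLF2, and 0.01 for IFIT1. A difference that missed the threshold with 2 arrays a group does not show that the effects add, and with normexp background correction 31 probes passed.

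**Figure D4:**
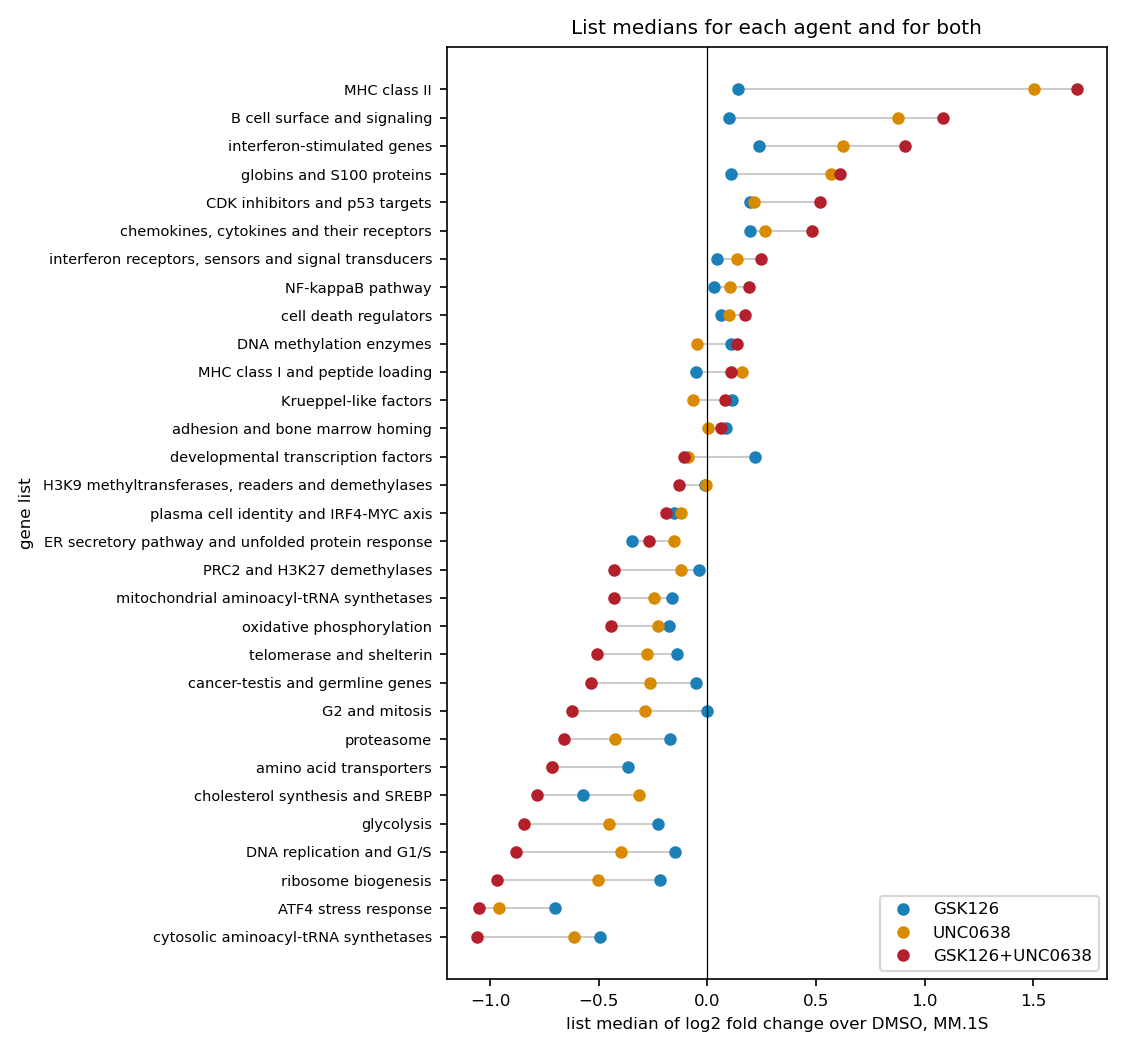
Median log2 fold change of each gene list in MM.1S for GSK126, UNC0638 and both, each over the same 2 DMSO arrays. In ribosome biogenesis GSK126 is nearest 0 and both inhibitors furthest from it (-0.22, -0.50 and -0.97), the cholesterol list has GSK126 (-0.57) further from 0 than UNC0638 (-0.31), and developmental transcription factors have GSK126 highest (0.22).

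The same treatment of RPMI-8226 gave a smaller change in many of the lowered lists. The response of the lines differed for 15.4% of genes (2180) and for 3221 probes, which became 1618, 1698 and 1489 without MM.1S DMSO replicate 1, MM.1S DMSO replicate 2 or MM.1S combination replicate 2. Among ribosome biogenesis genes 35 of 90 differed and all 35 fell more in MM.1S, where the list median was -0.97 beside -0.36 in RPMI-8226. G1/S genes differed in 23 of 76, all with the larger fall in MM.1S (-0.88 beside -0.30), and the proteasome in 15 of 33 (-0.66 beside -0.12). ATF4 response genes differed in 20 of 37, 19 of them lower in MM.1S relative to RPMI-8226. The interferon-stimulated genes had similar medians, 0.91 and 0.96, with 15 of 70 called different, 9 with the larger value in MM.1S and 6 with the smaller. MHC class II had 2 of 19 called different. CXCL13 was above background on both combination arrays of MM.1S and on no DMSO or combination array of RPMI-8226. LAMB3 gave 4.56 and 0.07, a difference of 4.48 ± 0.34 (adjusted p = 4.02e-05), but it was named for its rise in MM.1S, which favours such a difference. MYC gave -1.71 and -0.60 (difference -1.11, adjusted p = 0.0101). IRF4 changed by -1.19 and -1.70, a difference that did not pass the test (adjusted p = 0.157), and KLF2 by -1.83 and -1.85. The lines were on separate slides, so slide and line cannot be told apart in this comparison, while in MM.1S each treatment was in its own column of 1 slide.

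**Figure D5:**
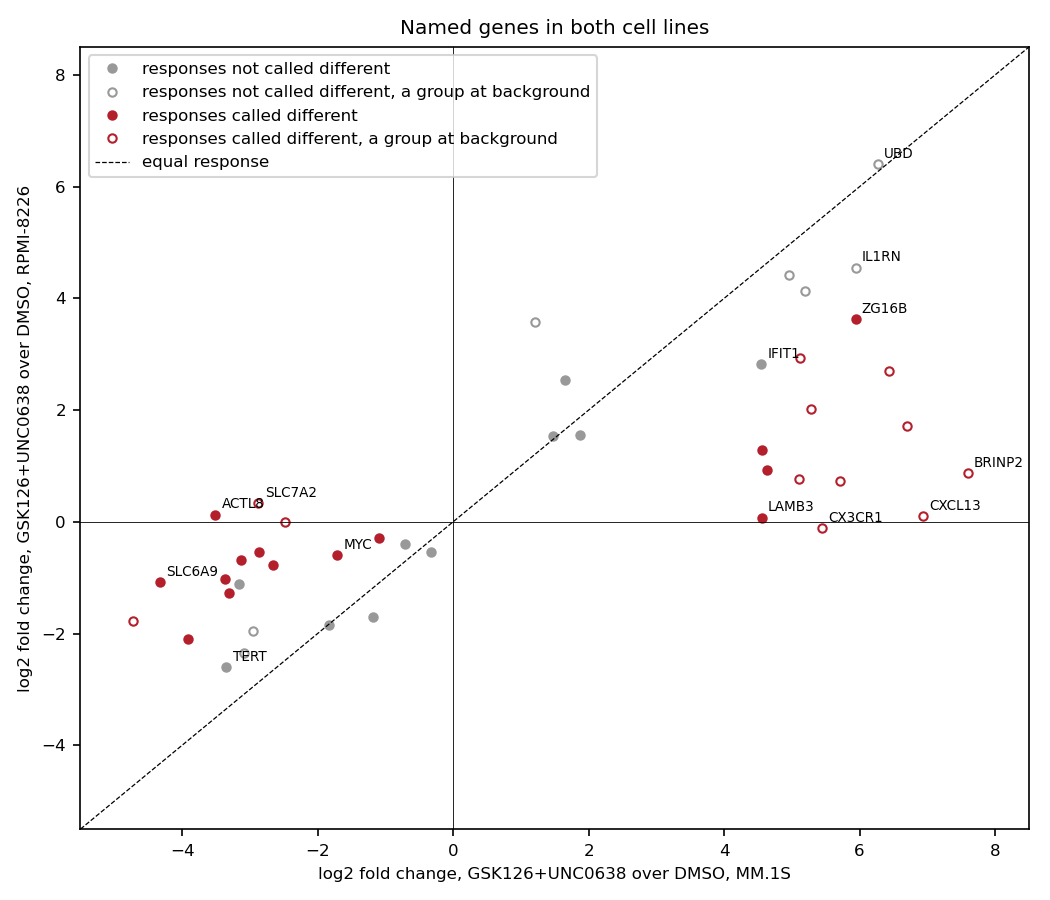
Log2 fold change with GSK126+UNC0638 over DMSO in MM.1S and in RPMI-8226 for the probes named by rule, with the dashed line where both are equal. Most of the probes were chosen for a large change in MM.1S, which favours a larger change there. Red points passed the test of the difference, such as LAMB3 (4.56 and 0.07) and SLC6A9 (-4.32 and -1.07), and grey points such as IFIT1 (4.55 and 2.82) did not. Open points had an array at background in 1 or more of the 4 groups, and their place is not a measured size.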

How the data were processed

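RNA of 16 samples was hybridised to 1-colour Agilent SurePrint G3 Human GE v2 arrays. The authors deposited 1 scanner file for each array, made with Feature Extraction 10.7, with the processed intensity of each spot. They also deposited a table of processed intensities for the series. The study's methods name GeneSpring GX and state no filter, normalization or test for the arrays. The series table equalled the rounded processed intensity for 99.9956% of its non-control values.

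Here each processed intensity was taken to log2 and centred on the 75th percentile of the 58717 non-control spots of its array, and spots of a probe were averaged, which gave 50599 probes. Probes flagged well above background on both arrays of either group compared were kept. Groups were taken from the sample titles. limma 3.58.1 (lmFit and eBayes, R 4.3.3) was fitted over the 8 MM.1S arrays, or over all 16 for the comparison of the lines, with Benjamini-Hochberg adjustment over the kept probes and a threshold of 0.05. For gene counts each gene was represented by its brightest probe, on average, in MM.1S. Of the 14138 genes, 4100 had several probes and 106 of them had probes called in both directions. For a probe at background on the whole of one group, the fold is a lower bound, taken against the dimmest detected signal of each array or the probe's own, whichever is higher. Gene symbols are those of the array, updated through RefSeq, and probe positions are in GRCh37 as the files give them. On simulated data with 100 probes changed at each of the log2 sizes 1 and 2 among 24563, 59% and 84% were recovered, and 10 of 153 calls were false. The data had 13592 called probes, far more than the simulation changed, so these rates need not hold for them. The number of arrays limits the precision.

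Named genes were the 10 largest rises and falls measured in both groups, the 8 and 5 largest lower bounds, genes that the study measured or targeted, and up to 4 rises and 4 falls of each list with members whose role needed a value. Values of some genes of this rule are not reported here. The members and the gene lists were chosen with earlier results of these data known, so no p is given for a list. Alternatives were quantile normalization, normexp background correction (offset 50), other filters and scalings, the series table, a replicate block, other sets of arrays in the fit, a prior variance that depends on intensity, a 2-fold threshold, the mean over a gene's probes, and leaving out each array. Promoters were from RefSeq GRCh38.p14.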

Additional observations from a re-analysis of the deposited data

Results flagged for a closer look

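The response to GSK126+UNC0638 differed between the lines, by limma's interaction over 16 arrays, for 26 of the probes named, given here as the MM.1S change minus the RPMI-8226 change on the log2 scale. Over all genes the share that differed was 15.4%. Most named probes were chosen for a large change or bound in MM.1S, and the difference reuses those values. A larger change in MM.1S was thus favoured by the choice, and the count of 26 is no support for it. For 14 of them the DMSO and combination arrays of both lines were all well above background. Among these the difference was positive, with the larger rise in MM.1S, for LAMB3 (4.48), CNR1 (3.70), CBLB (3.26) and ZG16B (2.31). It was negative, with the larger fall in MM.1S, for ACTL8 (-3.64), SLC6A9 (-3.25), CBS (-2.44), ADGRE2 (-2.35), SLC7A5 (-2.33), PSAT1 (-2.04), the dimmer probe of ADM2 (-1.88), the brighter probe of CHAC1 (-1.81), MYC (-1.11) and EZH2 (-0.81). The remaining 12 probes had an array at background in 1 or more of the 4 groups, so their fitted differences are not measured sizes and have no order. The fitted values were 6.83 for CXCL13, 6.72 for BRINP2, 5.55 for CX3CR1, 4.986 and 4.987 for the probes of FCRL5, 4.35 for CHRNA1, 3.75 for FCRL2, 3.28 for BCL6, 2.19 for CEACAM1, -3.21 for SLC7A2, -2.94 for the dimmer probe of CHAC1 and -2.48 for that of CDC23. The lines were hybridised on separate slides, and slide and line cannot be told apart. No group held enough arrays for a check of single arrays that stand apart.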

How the results depend on the processing

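The count of 13592 changed probes stayed within 1.5-fold under each alternative except the 2-fold threshold, which left 3993, and leaving out 1 array gave 10521 to 13149 (4303 to 5440 higher and 6050 to 7734 lower). The count of probes over 2-fold was 1020 higher and 784 lower with normexp, beside 2515 and 1478. The departure from additivity, called for 0 probes, was called for 4 with quantile normalization, 31 with normexp and 0 to 3 with 1 array left out. The difference between lines, 3221 probes, was 1489 to 4053 with 1 array left out. Same-numbered arrays deviated together at r of 0.0927 to 0.23, under 0.1 for DMSO and UNC0638, so the numbers were not taken to pair the samples, although MM.1S arrays of the same number also share a recorded date. A replicate block, which is then also a block of date, called 14619 probes, and among the genes named it moved the call of CIITA (adjusted p = 0.04156) and no other. The slide as a block was not run because all MM.1S arrays share 1 slide.

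The following values changed sign, and the cause was not tested. With quantile normalization BST2 was 0.068, SP100 0.147, IFI30 0.0724, IGLL5 0.0138, XBP1 0.0561 and HLA-C 0.311, and the list medians were 0.131 for plasma cell identity and the IRF4-MYC axis, 0.0141 for the secretory pathway, 4.13e-05 for H3K9 methylation and -0.0575 for T and NK cell markers. With the percentile over detected probes HLA-C was 0.0169, EHMT1 0.0361 and IFNL2 0.0798, and the medians were 0.0361 for H3K9 methylation, 0.0572 for developmental factors and 0.00528 for granulocyte markers. With the mean over probes the medians of developmental factors and adhesion genes were 0.00645 and -0.0335. With 1 array left out CDKN1A ranged from -0.0565 (without DMSO replicate 1) to 0.438, IFNL2 from -0.41 to 0.236 (also positive without combination replicate 2, 0.0789), and the medians from -0.0386 (without combination replicate 2) to 0.106 for adhesion genes, from -0.259 to 0.524 for T and NK cell markers and from -0.4499 to 0.127 for granulocyte markers. The list medians otherwise kept their sign. Low signal limits the dim probes, whose folds are bounds.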
